A study of Mus musculus with 2 samples.

Results

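Small noncoding RNA genes often have start sites of their own, far from any messenger RNA promoter, and the DNase-hypersensitive regions beside them were examined here in lung tissue. A member was an autosomal peak within 1 kb of a GENCODE mouse gene of type miRNA, snoRNA, scaRNA or snRNA and more than 1 kb from every transcript 5′ end of protein-coding and long noncoding genes. This choice used annotation and peak positions only, not peak scores. It gave 354 members in replicate 1, out of 61895 autosomal peaks more than 1 kb from transcript 5′ ends and 94786 peaks in all. Replicate 2 had 293 members, out of 49880 such autosomal peaks and 77403 peaks in all. The mean was 323.5 ± 43.13 members per library (SD, n = 2). Of 4834 autosomal small RNA genes, 311 in replicate 1 (6.434%) and 257 in replicate 2 (5.317%) had a member, the shares against which the counts of gene copies below are read. The 61895 and 49880 distal autosomal peaks, members included, are called all distal peaks below and serve as the background.

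DNase-seq cuts open chromatin in nuclei with DNase I and maps the cut ends by sequencing. The tissue was lung from male mice aged 14 days of the strain B6CASTF1/J, the first-generation hybrid of C57BL/6J and CAST/EiJ. Both libraries belong to a single group, with no treatment and no control group. Replicate 1 is labelled as male with no pool named, and replicate 2 as a pool of 3 males. Both carry a common donor record, so it is not known whether they share animals, and their spread may be technical. Whole lung mixes many cell types, so a weak peak in all cells and a strong peak in few cells cannot be told apart. Peaks lay within 1 kb of a transcript 5′ end for 9 of 10 lung epithelial marker genes in replicate 1 and 8 of 10 in replicate 2 (Scgb1a1 lacked one in both libraries and Aqp5 in replicate 2), for 3 of 3 endothelial and 3 of 3 mesenchymal markers in both, and for 1 of 6 markers of other tissues (Afp). Read depth is unknown because no read counts are given, and the peak score has no stated scale. Each score is therefore given as its percentile among all peaks of its own library.

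Small nuclear RNAs (snRNAs) are the RNA cores of the spliceosome: U1 recognises the 5′ splice site, U2 the branch point, and U4, U5 and U6 join as a tri-snRNP. Their genes have an unusual promoter made of a proximal element, bound by the SNAPc complex, and a distal sequence element further upstream. The distal element commonly holds an octamer, the binding sequence of Oct-1 (Pou2f1), and can hold a site for ZNF143. U1, U2, U4 and U5 genes are transcribed by RNA polymerase II, and U6 genes by RNA polymerase III with the help of a TATA box. These genes are multicopy in mammals, and many annotated copies are decayed pseudogenes. Small nucleolar RNAs (snoRNAs) guide modification of ribosomal RNA or, as U3 and U8 do, help to cut its precursor. Most are cut out of introns of host genes, whereas U3 and U8 have their own snRNA-type promoters. Small Cajal body RNAs (scaRNAs) guide modification of snRNAs. MicroRNAs (miRNAs) silence messenger RNAs through their seed, bases 2 to 8 of the mature strand, and are cut from longer primary transcripts whose promoter may lie far away.

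The peaks below show the main pattern of the data, an open region upstream of snRNA genes. They come from 1 copy of each class that had an upstream peak with an octamer (for U6, a pair of convergent neighbours). For contrast, 1 U3 gene is added, and 1 U6 gene, Gm25064, whose upstream octamer lay outside the called peak. Each is the replicate 1 peak in the mm10 reference, read from RefSeq GRCm38.p6 in the direction of the small RNA gene, 5′ to 3′. Capitals mark the octamer ATGCAAAT on either strand. The letters are those of the reference genome, which is the C57BL/6J parent, so CAST/EiJ differences are not shown.
Rnu2-10 (U2), chr11:101657941-101658120, + strand: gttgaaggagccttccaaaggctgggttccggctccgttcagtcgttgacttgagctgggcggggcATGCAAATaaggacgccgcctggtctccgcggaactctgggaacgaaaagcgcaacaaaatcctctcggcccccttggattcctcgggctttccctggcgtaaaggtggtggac
Gm22068 (U1), chr11:87426381-87426560, + strand: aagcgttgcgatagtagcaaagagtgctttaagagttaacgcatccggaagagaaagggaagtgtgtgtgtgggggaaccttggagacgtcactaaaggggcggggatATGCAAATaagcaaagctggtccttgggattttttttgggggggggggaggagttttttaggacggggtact
Gm24407 (U4), chr5:115489921-115490120, + strand: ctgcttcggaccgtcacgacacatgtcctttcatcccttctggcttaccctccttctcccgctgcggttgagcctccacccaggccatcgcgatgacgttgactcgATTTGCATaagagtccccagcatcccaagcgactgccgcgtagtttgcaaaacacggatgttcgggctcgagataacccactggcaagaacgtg
Gm25313 (U5), chr9:65196861-65197020, - strand: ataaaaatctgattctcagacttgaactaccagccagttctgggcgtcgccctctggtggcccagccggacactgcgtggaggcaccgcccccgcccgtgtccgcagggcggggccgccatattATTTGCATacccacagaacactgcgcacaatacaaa
Gm23296 (U6), chr12:52604761-52604940, - strand: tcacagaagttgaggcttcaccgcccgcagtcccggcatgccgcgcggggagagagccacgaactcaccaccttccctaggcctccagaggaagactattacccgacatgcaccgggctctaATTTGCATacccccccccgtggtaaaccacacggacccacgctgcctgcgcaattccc
Gm24859 (U6, convergent neighbour of Gm23296), chr12:52603441-52603660, + strand: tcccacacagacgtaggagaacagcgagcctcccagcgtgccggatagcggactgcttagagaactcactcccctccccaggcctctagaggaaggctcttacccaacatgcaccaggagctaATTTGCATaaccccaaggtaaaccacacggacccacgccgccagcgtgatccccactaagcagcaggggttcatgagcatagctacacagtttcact
Gm25064 (U6), chr9:63132881-63133060, + strand: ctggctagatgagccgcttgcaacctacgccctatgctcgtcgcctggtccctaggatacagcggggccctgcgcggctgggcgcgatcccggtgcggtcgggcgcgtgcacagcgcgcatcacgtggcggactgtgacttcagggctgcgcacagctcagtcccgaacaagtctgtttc
Rnu3b3 (U3), chr11:87448281-87448440, + strand: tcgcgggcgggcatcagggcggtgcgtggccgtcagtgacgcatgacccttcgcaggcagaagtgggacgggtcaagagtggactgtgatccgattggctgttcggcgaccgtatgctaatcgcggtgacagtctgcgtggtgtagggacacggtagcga

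Peaks at U1, U2, U4 and U5 genes gathered at 1 distance upstream of the gene. Positions are those of the peak centre relative to the gene's 5′ end, negative upstream. Between -350 and -150 bp, called the upstream window and chosen after the positions were seen, lay 17 of the 38 members at these 4 classes in replicate 1 (44.74%, exact binomial 95% interval 28.62 to 61.7%) and 15 of 35 in replicate 2 (42.86%, 26.32 to 60.65%). By class, the window held 8 of 14 and 7 of 12 members for U2, and 6 of 8 and 5 of 8 for U5. For U1 it held 2 of 13 (15.38%) and 2 of 11 (18.18%), and for U4 1 of 3 and 1 of 4. Peaks at U6 genes were spread more widely than those of the 4 classes together, though not than those of U1. In that window lay 8 of 38 U6 members in replicate 1 (21.05%) and 6 of 28 in replicate 2 (21.43%). MiRNA genes had 15 of 179 members there in replicate 1 (8.38%) and 12 of 156 in replicate 2 (7.692%). For snoRNAs other than U3 the window held 2 of 66 and 3 of 50 members, while 24 of 66 in replicate 1 and 14 of 50 in replicate 2 overlapped the snoRNA gene itself. Binomial intervals here and below cover counting error only, and neighbouring peaks and gene copies are not independent.

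**Figure D1:**
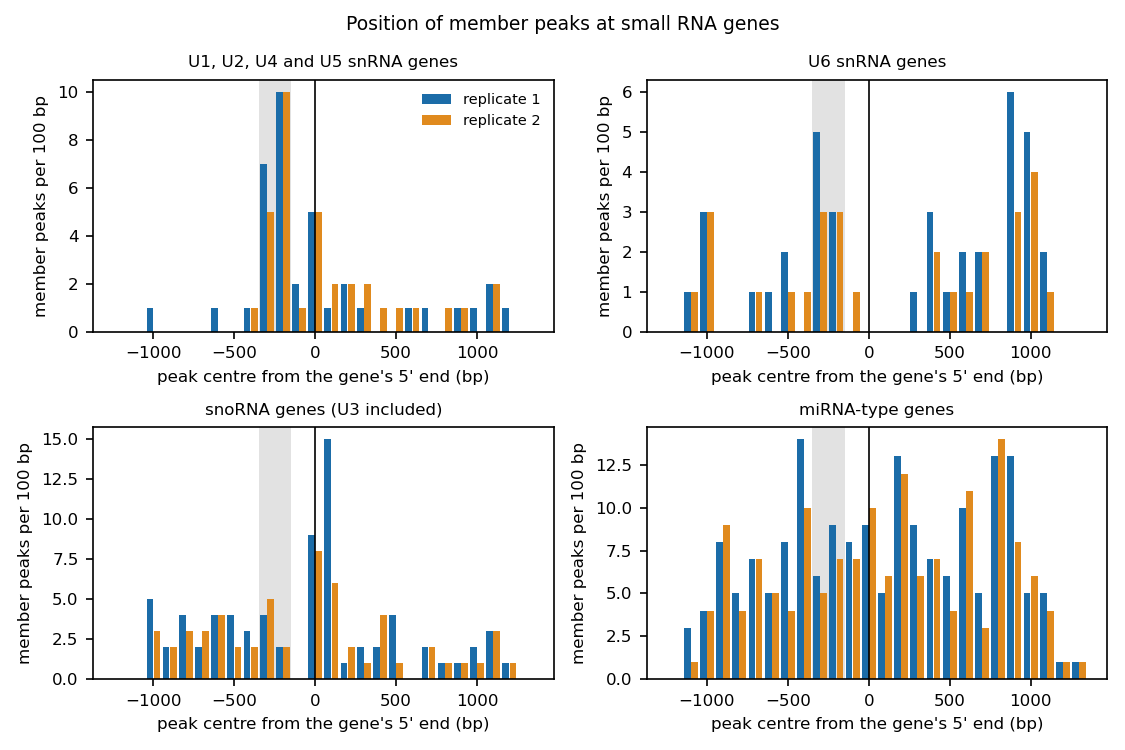
Number of member peaks per 100 bp (vertical axis) by distance of the peak centre from the small RNA gene's 5′ end in bp (horizontal axis, negative upstream), with blue bars for replicate 1 and orange bars for replicate 2. The grey band is the window from -350 to -150 bp, which holds 17 and 15 of the peaks at U1, U2, U4 and U5 genes, while peaks at miRNA genes spread over the whole range.

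The upstream peaks were also strong for their library. At U1, U2, U4 and U5 genes the 17 upstream members had a median score percentile of 83.11 in replicate 1 and the 15 of replicate 2 a median of 82.2, against 43.22 and 42.19 for all distal peaks. The other members at genes of these 4 classes had medians of 34.28 in replicate 1 and 35.54 in replicate 2. Footprints are short stretches protected from cutting within the peak. Upstream members carried on average 4.353 and 3.667 footprints each, against 2.095 and 1.75 for the other members of these 4 classes. The part of the higher scores in this difference was not tested. Upstream members held a median of 11 and 10 CpG dinucleotides, against 2 and 3 in all distal peaks. Their median width was 180 bp in both libraries, against 172 and 180 bp.

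**Figure D2:**
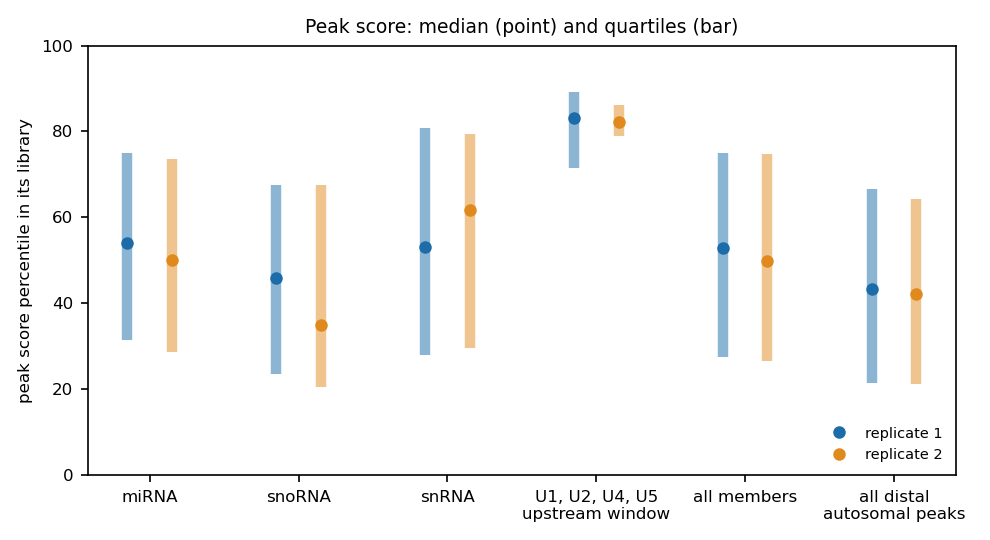
Peak score percentile within the library (vertical axis, 0 to 100) for members at miRNA, snoRNA and snRNA genes, for members in the upstream window of U1, U2, U4 and U5 genes, for all members and for all distal autosomal peaks. Points are medians and bars run from the lower to the upper quartile, blue for replicate 1 and orange for replicate 2; the upstream snRNA peaks have the highest medians plotted, 83.11 and 82.2.

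U5 snRNA, which holds the exons at the catalytic centre of the spliceosome, had the largest share of copies with a member among the snRNA classes, 6 of 11 in replicate 1 and 5 of 11 in replicate 2, all of them upstream. The strongest was Gm25313, whose peak at -253 bp in replicate 1 and -243 bp in replicate 2 stood at percentiles 97.08 and 94.24. Rnu5g had a peak at -229 and -239 bp at percentiles 90.92 and 85.18. Both genes lie in introns of Parp16 on its opposite strand, as did a further, weaker shared site centred at 1052 bp of Rnu5g in replicate 1, with percentiles of 34.28 and 35.01.

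On chromosome 4, 3 U5 genes lie close together: Gm25099 (-272 bp in both libraries, percentiles 92.27 and 88.45), Gm23287 (-304 and -294 bp, 89.18 and 82.53) and Gm23143 (-258 bp, 46.78, replicate 1 only). In replicate 2 no peak was called at Gm23143, though 179 bases within 1 kb of it had a q-value under 0.05. Gm22265, on the opposite strand in a Hhat intron, had percentiles of 59.74 in replicate 1 and 48.04 in replicate 2. U5 upstream peaks therefore ran from 46.78 to 97.08 in replicate 1, and 4 of the 6 stood above 89.

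U2 genes, whose RNA pairs with the branch point, shared a common arrangement. Of 25 U2 copies, 9 had a member in replicate 1 and 8 in replicate 2, and 8 and 7 of these had it in the upstream window. Rnu2-10, the U2 gene with a name, had its peak at -208 bp in both libraries (percentiles 85.86 and 82.2) and 2 further shared sites, at 182 and 742 bp in replicate 1 (50.08 and 77.11). Gm25939 was the highest U2 copy in both libraries, with percentiles of 87.83 and 88.78.

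The remaining U2 copies with an upstream peak in both libraries were close in level. Gm24950 had 83.11 in replicate 1 and 79.71 in replicate 2, Gm23444 had 81.85 and 79.33, Gm26316 had 81.25 and 78.76, and Gm25360 had 79.84 and 82.2. Only Gm22973 was low in both, at 37.38 and 43.6. Gm23971 had an upstream peak in replicate 1 alone, at percentile 71.37, although its gene body equals the commonest U2 sequence, like 3 other copies. In replicate 2 no peak was called there, though 237 bases within 1 kb of Gm23971 had a q-value under 0.05. Gm23971, Gm24950, Gm26316 and Rnu2-10 lie within chr11:101604521-101659080 (mm10).

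In the U2 family, peaks lay mostly at the least diverged copies. Of the 11 U2 copies within 5 edits of the commonest sequence, 10 in replicate 1 and 9 in replicate 2 had a peak of any kind within 1 kb, counting peaks near transcript 5′ ends that are no members. Of the 14 more diverged copies, 2 had one in each library. The octamer gave a similar split of the copies: 12 of 25 had it between -350 and -150 bp, and 11 of those in replicate 1 and 10 in replicate 2 had a peak, against 1 of the 13 without it in each library. The sequence 250 bp upstream occurred once in the genome for all 25 copies (50-base check).

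U1 and U4 genes had fewer upstream peaks. Gm22068 (U1) had a peak at -246 and -236 bp at percentiles 85.99 and 79.33, and Rnu1a1, 1 of the named U1 genes, at -257 bp at 66.51 and 66.96. Rnu1a1 had a stronger shared peak just downstream, at 143 bp, with percentiles of 78.61 and 82.96. Among 115 annotated U1 copies, 11 in replicate 1 and 8 in replicate 2 had a member. For U1 the relation to sequence went the same way as for U2, with a smaller share of the close copies. Of 13 copies within 5 edits, 5 had a peak of any kind within 1 kb in replicate 1 and 6 in replicate 2. Of the 102 more diverged copies, 7 and 3 had one. Of the 7 commonest-sequence copies, 3 and 4 had one, and for 4 of these 7 the 50 bases 250 bp upstream occurred once in the genome. The upstream octamer was held by 2 of the 115.

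For U4, which pairs with U6 and holds it inactive, 3 of 11 copies had a member in both libraries and 1 of them was upstream. That copy, Gm24407, had a peak at -234 and -244 bp at percentiles 90.63 and 87.17. In replicate 2 a second peak lay over its start, at 16 bp and percentile 74.82, which was the highest member of that library without a partner in the other.

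U6 is the catalytic snRNA and its family is by far the largest, with 655 annotated autosomal copies. Of these, 33 had a member in replicate 1 and 27 in replicate 2. The 3 with the highest percentiles were upstream. Gm23296 had percentiles of 97.73 at -259 bp and 93.31 at -269 bp, Gm24204, in a Rpl3 intron, had 95.13 and 93.83 at -277 bp, and Gm25064 had 94.2 and 94.87 at -313 bp.

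Gm24859, which lies less than 1 kb from Gm23296 on chromosome 12 and is transcribed towards it, had percentiles of 86.48 at -238 bp and 81.79 at -248 bp. Gm25897, in a Lima1 intron, had 56.56 and 35.55, and the low peak of Gm25937, which the replicate 2 peak placed at -117 bp and thus outside the window, had 5.55 and 9.07. An upstream position at a U6 gene was thus not always a strong peak. The highest U6 member elsewhere, at 660 bp of Gm25637, had 91.87 in replicate 1 and 80.67 in replicate 2.

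An intact U6 gene body was mostly without a peak. Of the 40 copies identical to the commonest U6 sequence, 1, Gm25064, had a peak within 1 kb in either library, and of 177 copies within 5 edits, 15 and 13 had one. The octamer lay in the upstream window of 17 U6 copies, of which 6 had a peak in both libraries. Where both features were present, 5 of 7 copies had a peak in each library (Gm25064, Gm23296, Gm24859, Gm24019 and Gm26243), against 10 of 170 in replicate 1 and 8 of 170 in replicate 2 among copies within 5 edits but without the octamer. The peak of Gm24019, 272 bp from a transcript 5′ end, is no member. The 50 bases 250 bp upstream occurred once in the genome for 607 of the 655 copies and for 35 of the 40 commonest-sequence copies. How reads matching several copies were treated is not given in the sources used here, and the part of copy number in these counts was not tested.

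No member lay near any of the 43 U7, 3 U11 or 14 U6atac copies in either library, and 1 of 4 U12 copies had one in each. U11, U12 and U6atac serve the minor spliceosome and U7 the processing of histone messages. For each of these classes 1 copy had a peak within 1 kb of a transcript 5′ end instead. A count of 0 of 43 U7 copies has an exact 95% upper bound of 8.221%, which lies above the 6.502% and 5.108% of all snRNA genes that had a member, so a lower share at U7 genes was not detectable. Gm23856, an snRNA gene with no RefSeq class, had an upstream peak at -328 bp at percentiles 90.73 and 86.59.

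**Figure D3:**
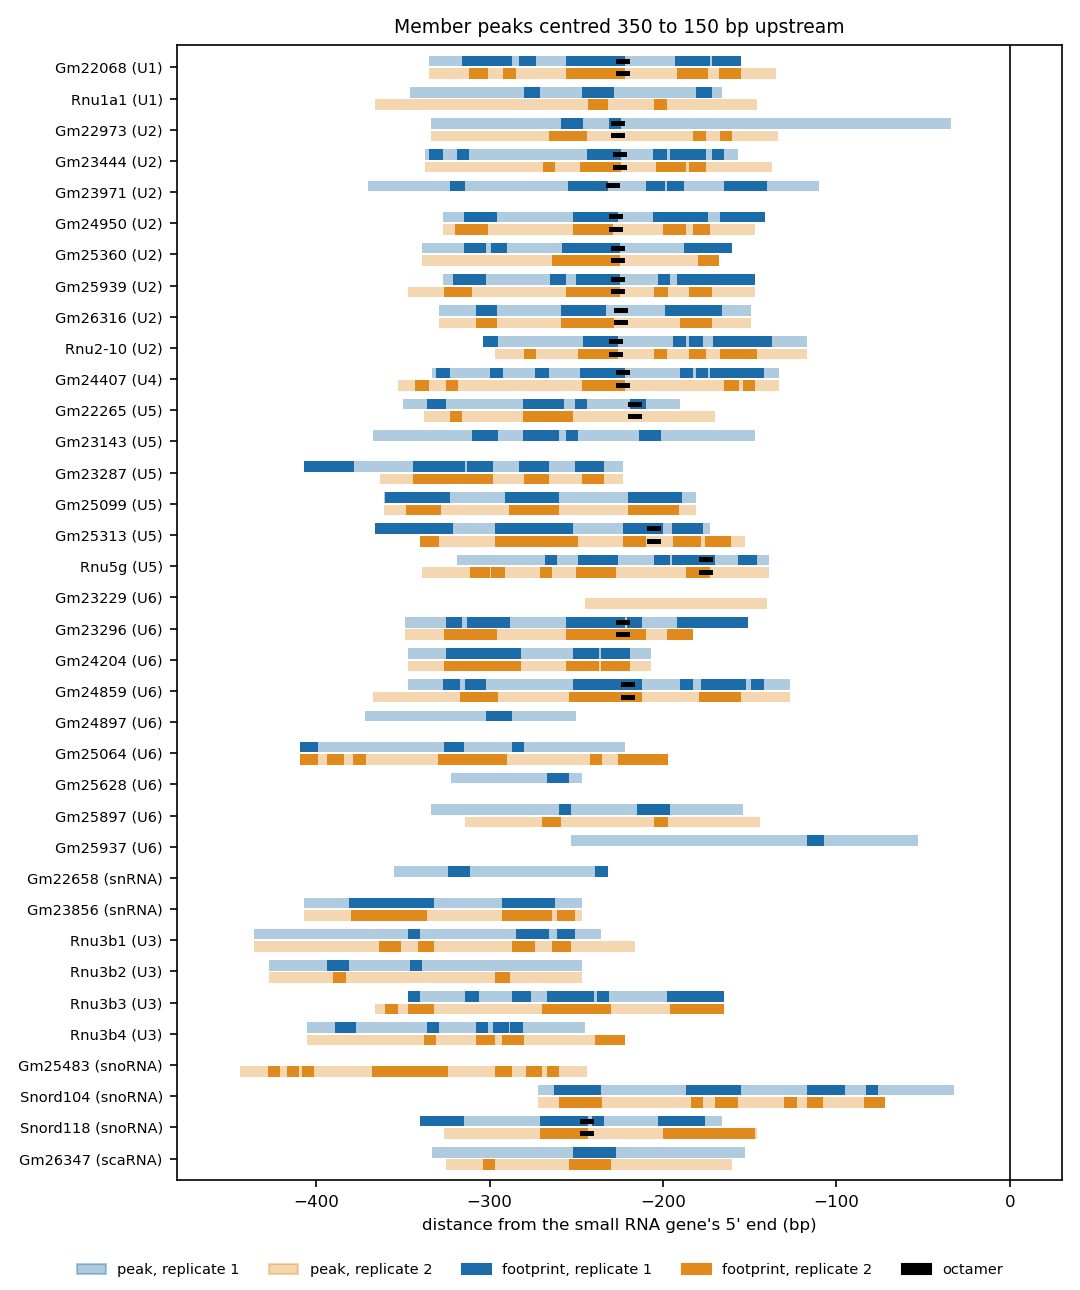
Map of the member peaks centred in the upstream window of 36 snRNA, snoRNA and scaRNA genes, with distance from the gene's 5′ end in bp on the horizontal axis and 1 gene per row. Pale bars are peaks, dark bars footprints and black marks the octamer, in blue for replicate 1 above and orange for replicate 2 below; the octamers of the 8 U2 rows line up between -230 and -225 bp.

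The octamer was frequent in the upstream snRNA peaks and rare elsewhere. In the 201 bp around the peak centre, ATGCAAAT on either strand occurred in 15 of 27 upstream snRNA members in replicate 1 (55.56%) and 14 of 22 in replicate 2 (63.64%), against 0.8256% and 0.8119% of all distal peaks. Among members at snRNA genes outside that window it occurred in 1 of 71 and 0 of 56. For U1, U2, U4 and U5 upstream members the counts were 13 of 17 (76.47%) and 12 of 15 (80%), for U6 2 of 8 and 2 of 6, and for U3 0 of 4 in each library. Gm25064 (U6) is not among these matches, because its upstream octamer lay outside the 201 bp. Copies of a family share sequence, so these counts are not of independent sites.

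In gene direction the fourth base of the octamer lay between -230 and -176 bp, with a median of -225 bp in replicate 1 and -224.5 bp in replicate 2. It stood between -230 and -225 bp in the U2 copies, at -224 bp in Gm22068 and Gm24407, and at -221 and -224 bp in the 2 U6 genes Gm24859 and Gm23296. U5 genes were the exception, with -217 bp in Gm22265, -206 bp in Gm25313 and -176 bp in Rnu5g. The octamer read in the gene's direction in Gm22068, in the U2 copies and in Rnu5g, and on the other strand in Gm24407, Gm25313, Gm22265 and both U6 genes, as the capitals in the printed sequences show.

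Footprints overlapped most of these octamers by at least 1 bp, though few octamers lay whole inside one. Of the octamers inside upstream snRNA peaks, 14 of 15 in replicate 1 (93.33%) and 10 of 14 in replicate 2 (71.43%) overlapped a footprint, against 105 of 410 (25.61%) and 71 of 334 (21.26%) of the octamers in all distal peaks. The background share rose with peak score, to 33.66% in replicate 1 and 30.07% in replicate 2 above percentile 50, so the same was counted in peaks above percentile 80: 10 of 11 and 7 of 8 in upstream snRNA peaks, against 27 of 51 (52.94%) and 15 of 37 (40.54%) in all distal peaks. In Rnu2-10 the footprint that overlapped the octamer was 20 bp wide in replicate 1 and 23 bp in replicate 2. It ran from -246 to -227 bp in replicate 1 and from -249 to -227 bp in replicate 2. The octamer ran from -231 to -224 bp, so it was covered in part. The octamer lay whole inside a footprint only for Gm25313, Rnu5g and Gm24859 in replicate 1 and for Gm23296 and Gm24859 in replicate 2. The file gives each footprint as an interval alone, so which protein was bound was not measured.

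Searched over the windows of all small RNA loci whether or not they had a peak, the octamer occurred between -350 and -150 bp of 43 of 1292 snRNA loci (3.328%), 35 of 2054 miRNA loci (1.704%) and 26 of 1432 snoRNA loci (1.816%). Of 5 further letter patterns searched on both strands, the GC-box pattern GGGCGGG of SP/KLF factors occurred in 8 of 17 and 7 of 15 upstream peaks of U1, U2, U4 and U5 genes, against 5.325% and 5.417% of all distal peaks. The CTCF-like pattern CNAGGGGGC occurred in 6 of 17 and 5 of 15, against 3.672% and 3.777%, and the GC-box pattern can share its leading letters with the end of this one. The ZNF143-like pattern ACTACAANT was found in none of the 27 and 22 upstream snRNA windows of 201 bp, against 0.4168% and 0.413% of all distal peaks. Other forms of a ZNF143 site were not searched, so the lack of an ACTACAANT match does not show that these peaks lack a ZNF143 site. Over all members, the AP-1 pattern TGANTCA stood at 6.215% and 8.191%, against 8.472% and 8.512% of all distal peaks. The FOX pattern TGTTTAC stood at 2.542% and 2.73%, against 4.167% and 4.499%. These are matches of letters, not measured binding.

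U3 snoRNA, which guides the first cuts of the ribosomal RNA precursor, had upstream peaks too, though without an exact match to ATGCAAAT. Variants of the octamer were not searched, and the printed Rnu3b3 peak holds the similar letters atgctaat. The 10 U3 gene records cover 5 loci, each listed under a pair of records, and 8 records had a member in both libraries. Rnu3b3 had a peak at -267 and -277 bp at percentiles 94.05 and 96.61, Rnu3b4 at -326 and -316 bp at 80.45 and 85.28, Rnu3b1 at -337 and -327 bp at 74.42 and 83.06, and Rnu3b2 at -338 bp at 72.95 and 72.38. The order of the 4 was the same in replicate 2, with Rnu3b3 highest. The 50 bases 250 bp upstream of Rnu3b1, Rnu3b2 and Rnu3b4 each occurred 3 times in the genome, whereas those of Rnu3b3 occurred once.

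All 4 lie in introns of Tex14, in its direction, together with Rnu1a1 and Gm22068, and Tex14, a gene of germ cell bridges, thus held 9 shared sites, the most of any host. Parp16, Camta1, Snhg14 and Srf held 3 each. In Camta1 they were all at Gm23405 (U1), with percentiles of 93.73 and 86.83 at 615 and 605 bp, 52.78 and 28.6 over the start, and 27.41 and 17.11 between them.

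Members at other snoRNA genes had lower medians, 44.89 over 66 members in replicate 1 and 33.31 over 50 in replicate 2, against 72.95 and 72.38 over the 7 U3 members of each library. Single peaks at other snoRNA genes were as high as those at U3 genes, among them those at Snord118 and Snord104. Snord118 (U8) had an upstream peak at -247 and -237 bp at percentiles 88.1 and 88.92. It held an octamer at -245 bp in the gene's direction, with a footprint over part of it in both libraries. A second Snord118 site lay over the gene at 53 and 73 bp, at percentiles 65.47 and 68.6. Snord104, a C/D box snoRNA, had a peak at -153 and -173 bp at 93.69 and 96.26.

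Snhg14 held the lowest of the shared snoRNA sites named here. This long noncoding RNA hosts the imprinted SNORD116 cluster, whose loss is linked to Prader-Willi syndrome in humans. Its sites at the copies Gm22417, Gm23446 and Gm25210 stood at percentiles 0.6383, 3.06 and 0.279 in replicate 1 and 4.442, 1.054 and 0.8314 in replicate 2. The 50 bases at the centre of the Gm22417 site occurred 4 times in the genome and those of Gm25210 3 times. Of 154 snoRNA gene records with a name, U3 included, 11 in replicate 1 and 10 in replicate 2 had a member, and 8 of these in each library were U3 records. In each library 36 had a peak only near a transcript 5′ end. Over all 1442 snoRNA gene records, 4.854% in replicate 1 and 3.814% in replicate 2 had a member.

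Of 46 scaRNA genes, 3 had a member in replicate 1 (6.522%) and 2 in replicate 2 (4.348%), near the 6.434% and 5.317% of all small RNA genes. Scarna2, whose human counterpart is transcribed from its own promoter, had a peak at chr3:108554681-108554920 (mm10), centred at -49 bp, at percentiles 93.66 and 93.12. Gm26347, annotated by RefSeq as scaRNA 11 and lying in an Rnf41 intron, had one at -244 and -243 bp at 59.74 and 50.98. Gm24644, scaRNA 21 in an Fbxo3 intron, had 12.98 in replicate 1 only.

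MiRNA genes made up the largest type, with 179 members in replicate 1 and 156 in replicate 2, against 73 and 57 at snoRNA genes, 98 and 78 at snRNA genes, and 4 and 2 at scaRNA genes. Their median percentile was 53.99 and 50.1. By gene, 154 of 2054 had a member in replicate 1 and 134 in replicate 2. Of 1091 with a miRNA name, 104 (9.533%) and 88 (8.066%) had one, and of 963 with a Gm number or the like, 50 (5.192%) and 46 (4.777%). Outside any host gene lay 66 of 179 miRNA members in replicate 1 (36.87%) and 57 of 156 in replicate 2 (36.54%), against 671 of all 2054 miRNA genes (32.67%). For snRNA members the counts were 62 of 98 (63.27%) and 50 of 78 (64.1%), against 716 of all 1292 snRNA genes (55.42%). The order of both types was thus that of the annotation.

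To show which miRNAs the named sites belong to, the RefSeq GRCm38.p6 mature strands are given 5′ to 3′ for 7 listed genes with a member in both libraries and for Mir210. Capitals mark the seed.
let-7i-5p (Mirlet7i): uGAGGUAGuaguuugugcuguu
miR-22-3p (Mir22): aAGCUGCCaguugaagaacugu
miR-210-3p (Mir210): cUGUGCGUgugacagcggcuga
miR-141-3p (Mir141): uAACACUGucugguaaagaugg
miR-203-3p (Mir203): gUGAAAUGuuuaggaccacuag
miR-34b-5p (Mir34b): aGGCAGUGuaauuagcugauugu
miR-142a-5p (Mir142): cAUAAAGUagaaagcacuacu
miR-142b (Mir142b): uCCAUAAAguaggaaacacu

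Of 164 miRNA genes near a member, 100 had a mature sequence in the RefSeq table, giving 155 mature strands with 153 distinct seeds. Among these strands only 2 seeds were shared, the 3p seed ACUGGCC of Mir193a and Mir193b and the 3p seed AUCACUA of Mir34b and Mir34c. The other seeds were each found at a single gene of the 100. Strands without a match in that table, miR-34c-5p among them, were not compared. The count of shared seeds is therefore a lower limit for the 164 genes.

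By mean percentile the highest named miRNA site was at Mir210, the miRNA best known for its induction by hypoxia. Its peak at chr7:141221761-141222120 (mm10) was centred at -457 bp in replicate 1 and -437 bp in replicate 2, with percentiles of 95.58 and 95.85. Mir6921, in an untranslated region of Srebf1, a master regulator of lipid synthesis, had 96.14 and 91.42. Mir22 had 92.09 and 87.56 at -616 and -626 bp, in a Tlcd2 intron.

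Several miRNA genes had more than 1 shared site. Mir7671 had 3, with percentiles of 95.26 and 93.71 at 654 bp, 94.15 and 93.82 upstream, and 83.45 and 86.93 over the gene. Mir6976, in introns of Srf, a factor that drives muscle and cytoskeletal genes, had 3 at 90.79 and 90.35, 83.2 and 89.48, and 36.99 and 38.15. Mir193a had 3, at 92.0 and 85.57, 87.13 and 86.77, and 39.23 and 33.31, the first of them at -999 and -979 bp, near the limit of the 1 kb window.

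The other highest named miRNA-type genes were Mir8111 (94.3 and 93.05), Mir6991 (87.95 and 88.39, in an untranslated region of 2700081O15Rik) and n-TStga1. RefSeq annotates n-TStga1 as a serine transfer RNA, and it is 1 of 20 GENCODE miRNA genes that RefSeq types as another RNA. It had 4 shared sites, the most of any small RNA gene, and the peak over its start stood at 92.04 and 89.87. The 2 shared sites with the highest mean percentile of all were singled out after their values were seen. Gm47305, which RefSeq annotates as 7S RNA 2, an RNA of the signal recognition particle, had a peak at chr12:69361461-69361640 with percentiles of 99.62 and 99.01. Gm23935 had 99.94 and 97.06 at chr16:11144171-11144320, where the 50 central bases occurred 4 times in the genome.

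The members were next read by lists of miRNAs known for a cell type. Of 118 listed genes, 14 in replicate 1 and 13 in replicate 2 had a member, 12 of them in both, 16 and 12 had a peak only near a transcript 5′ end, and 88 and 93 had none within 1 kb. Over all 1091 named miRNA genes, 9.533% and 8.066% had a member.

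**Figure D4:**
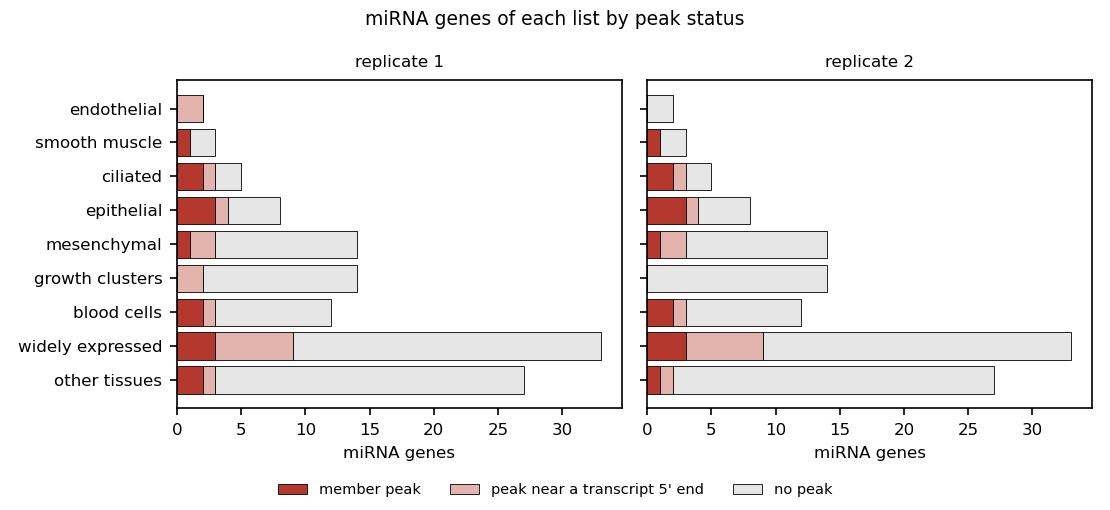
Number of miRNA genes (horizontal axis) of each list with a member peak, with a peak near a transcript 5′ end only, or with no peak within 1 kb, for replicate 1 (left) and replicate 2 (right). A member lies at 3 of 8 epithelial and 2 of 5 ciliated-cell miRNA genes in both libraries and at 0 of 14 growth cluster genes.

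Epithelial miRNAs had members at 3 of 8 genes in both libraries. Mir203, which restrains proliferation of skin epithelium, had shared sites at -530 and -540 bp (77.11 and 70.85) and at -170 and -180 bp (61.72 and 63.06), and another in replicate 1 only (16.97). Mir375, known from islet and neuroendocrine cells, had a peak at -239 bp at 73.71 and 65.3. Mir141, of the miR-200 family that maintains epithelial state, had a peak 955 and 965 bp downstream of its start at 64.07 and 49.92.

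Ciliated-cell miRNAs had members at 2 of 5 genes, Mir34b and Mir34c, which share a primary transcript and help multiciliated cells form. A single shared site served both genes, at 155 bp of Mir34b in a Btg4 intron, with percentiles of 50.08 and 28.6. A second site upstream was a member in replicate 1 only, at 12.49. Replicate 2 gave no value there to set beside it.

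Smooth muscle miRNAs had a member at 1 of 3 genes. Mir145a, which promotes the contractile state of smooth muscle, had shared sites at 534 bp (89.3 and 79.87) and -66 bp (67.55 and 58.72). Neither endothelial gene, Mir126a nor Mir126b, had a member, both had a peak near a transcript 5′ end in replicate 1 and no peak in replicate 2. Of 12 blood cell miRNAs, Mir142 and Mir142b, opposite strands of a hematopoietic locus, had 1 common site at 46.22 and 48.04.

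Mesenchymal miRNAs had a member at 1 of 14 genes, Mir199a-1 in a Dnm2 intron on the opposite strand, at 24.03 and 19.18. The growth clusters, which include Mir17, had 0 of 14 in both libraries. Of 33 widely expressed miRNAs, Mirlet7i and Mir22 had members in both libraries, with Mir100 (8.622) in replicate 1 only and Mir30d (13.62) in replicate 2 only. Mirlet7i, of the let-7 family that promotes differentiation, had 3 shared sites, at -266 bp (82.95 and 84.56), -736 bp (80.5 and 75.61) and 334 and 354 bp (56.56 and 35.01).

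Among 27 miRNAs of other tissues, Mir133a-1, a muscle miRNA, had a member in both libraries at 56.93 and 56.45, and Mir9-3, a neural miRNA, in replicate 1 only at 16.97. The percentiles of both thus lay within the range of the lung lists. Mir22 was the highest of the listed genes in both libraries.

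Across all members, 276 of 354 in replicate 1 (77.97%, 73.28 to 82.18%) overlapped a peak of the other library, against 71.1% of all distal peaks, and 272 of 293 in replicate 2 (92.83%, 89.25 to 95.51%), against 88.0%. A footprint was present in 334 of 354 members (94.35%), against 92.6%, and in 258 of 293 (88.05%), against 89.3%. The median score percentile was 52.78 and 49.92, against 43.22 and 42.19 for all distal peaks. Above percentile 90 stood 26 members (7.345%) and 15 members (5.119%), against 3.411% and 1.798%. Members at U1, U2, U4 and U5 upstream windows had a partner in 15 of 17 and 15 of 15 cases.

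Merged over the libraries, members formed 375 sites, 268 in both, 83 in replicate 1 only and 24 in replicate 2 only. Over shared sites the percentiles of the libraries had a Spearman coefficient of 0.9171 and a median absolute difference of 6.49, as a description over sites of the same 2 libraries. The highest members without a partner in replicate 1 were Gm24150 (U6, in a Rapgef2 intron) at 75.65, Gm23971 (U2) at 71.37 and Gm25494 (in an Itga7 intron) at 63.32. In replicate 2 they were Gm24407 (U4, over the start) at 74.82, Gm23444 (U2, at 172 bp) at 58.17 and Gm25336 at 36.58. Of these 6, 4 lay at U2, U4 or U6 genes.

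**Figure D5:**
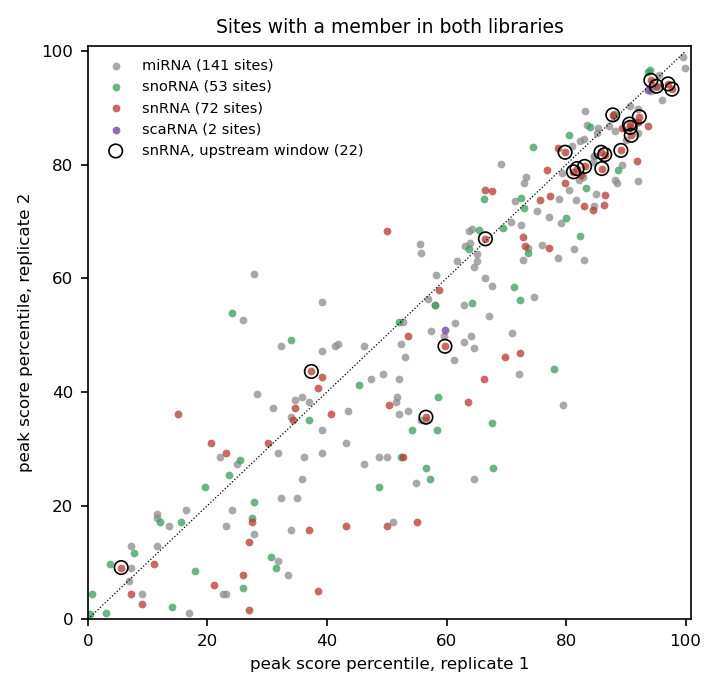
Score percentile in replicate 2 (vertical axis) against that in replicate 1 (horizontal axis) for the 268 sites with a member in both libraries, 1 point per site, coloured by RNA type. The dotted line marks equal percentiles, and rings mark the 22 upstream snRNA sites, most of them at the upper right.

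By place, 167 of 354 members in replicate 1 were centred in introns (47.18%), 166 between genes (46.89%), 12 in coding exons, 6 in untranslated regions and 3 in noncoding exons. Replicate 2 had 140, 134, 10, 6 and 3. Where the small RNA gene lay in a protein-coding host, the host ran in the same direction for 102 members and the opposite one for 60 in replicate 1, and for 90 and 49 in replicate 2. The same direction thus made up 62.96% and 64.75% of these, against 68.72% over all 2228 small RNA genes in protein-coding hosts, so members were near the annotation's share. The U5 genes in Parp16 are of the opposite kind and the U3 genes in Tex14 of the same kind.

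Both distance limits had peaks close to them. In the last 100 bp of the 1 kb around small RNA genes lay 27 members in replicate 1 and 18 in replicate 2, with median percentiles of 61.46 and 62.62, and in the 100 bp beyond lay 25 and 24 peaks, with medians of 39.58 and 35.93. In the first 100 bp past the limit from transcript 5′ ends lay 12 and 10 members (55.2 and 63.68), and in the 100 bp before it 11 and 8 peaks that were left out (20.04 and 36.11). Without the limit on transcript 5′ ends, 867 and 749 autosomal peaks lay within 1 kb of a small RNA gene.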

How the data were processed

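DNase-seq peaks of 2 lung libraries were used. Per the listings deposited beside the files, the authors aligned each library to mm10 and called it on its own, with no aligner, peak caller, version or calling threshold named there. The deposited peak score is a signal value of unstated scale, used only within a library. Of the 2 deposited peak files per library the one with fewer lines was used (94786 and 77403 peaks). The authors' FDR files list runs of bases with a q-value under 0.05, and the deposited footprints carry a constant p-value threshold of 0.01.

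Members, types and hosts came from GENCODE M21 on GRCm38, which shares mm10 coordinates: 4834 autosomal small RNA genes and 112492 transcript 5′ ends. All 4834 gene sequences matched the genome sequence. Of them, 3184 had a RefSeq small RNA on the same strand, which gave the classes U1 to U12. A partner or footprint overlapped by at least 1 bp. Edits are the fewest base changes from the commonest sequence of a class. Motif searches used 201 bp around peak centres on both strands, octamer positions the whole peak. Copy checks counted exact matches of 50 bases in the genome. Shares have exact binomial 95% intervals. With 1 group there is no contrast, so no test was run. Depth is unknown.

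Named genes were the highest shared sites by mean percentile (10 miRNA, 8 snoRNA, 6 snRNA and 6 scaRNA at most, names before Gm numbers), all members at listed miRNAs, the 3 highest members without a partner per library and hosts with 3 or more shared sites, other snRNA copies being named within their classes. Members, lists and the upstream window were chosen with earlier results of these data known. Distance, overlap and nearest-gene functions were tested on simulated intervals. Alternatives varied the 1 kb limits, peak file, score, overlap and gene naming. Python 3.11.15, numpy 2.4.6, pandas 2.3.3, scipy 1.17.1, matplotlib 3.10.9 and bedtools 2.31.1 were used.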

Additional observations from a re-analysis of the deposited data

How the results depend on the processing

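The main values, as means of the 2 libraries, were 323.5 members, 284.0 small RNA genes with a member, a median score percentile of 51.35, a partner for 85.4% and a footprint for 91.2%. Of 47 alternatives, 30 kept a count within 1.5 times its main value, or moved a percentage or percentile by less than the SD between libraries, and 17 did not. The share with a partner moved by less than the SD in 10 of 10. Within 1.5 times, but by more than the SD, member and gene counts became 387.0 and 343.5 with a shorter limit from transcript 5′ ends (500 bp) and 263.0 and 231.5 with a longer one. Member and gene counts became 205.0 and 184.0 with a 500 bp window, 582.0 and 511.0 with 2 kb, 512.0 and 436.5 with the larger peak files, 167.0 and 149.0 with the higher-scoring 50% of peaks, and 135.5 and 110.5 with named genes only. These settings change how many peaks or genes enter. The score percentile became 54.61 at 500 bp, 49.08 at 2 kb, 48.77 at a greater distance from transcript 5′ ends, 74.13 in the higher-scoring 50% (which fixes it above 50) and 61.54 for named genes. The footprint share became 80.47% with the larger files and 99.74% in the higher-scoring 50%. Leaving out either library gave 293 to 354 members, 257 to 311 genes, percentiles of 49.92 to 52.78, partner shares of 77.97 to 92.83% and footprint shares of 88.05 to 94.35%. U1, U2, U4 and U5 upstream members averaged 16 in the main window, 18 in a window widened by 50 bp on each side and 15 in a window narrowed by 50 bp on each side, both chosen after seeing the data. No paired analysis was possible because there is only 1 group. Depth is unknown, so an absent peak is a peak not called, and 10 of the 375 sites had central bases that occur more than once in the genome.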
